A study of Arabidopsis thaliana with 24 samples.

Results

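The early auxin response genes described here are 55 Arabidopsis thaliana genes of 3 families, 29 Aux/IAA genes, 7 GH3 genes and 19 SAUR genes (SAUR9 and the tandem clusters SAUR19 to SAUR24, SAUR26 to SAUR29 and SAUR61 to SAUR68). They were taken by gene identifier from the 32833 genes of the deposited tables. No measured value served as a criterion, but earlier results of these data were known when they were chosen. Transcripts were measured by RNA sequencing in whole Columbia 0 seedlings of 4 genotypes. These were wild type (WT), nrp1 nrp2, FyPP3DN and the combination labelled nrp1 nrp2 FyPP3DN, each left untreated (control) or given 5 µM abscisic acid (ABA, a hormone of drought and stress) for 24 h, with 3 libraries in each of the 8 groups. The labels give an age of 5 d before the treatment, and all plants grew vertically. FyPP3DN is named for FYPP3, which encodes one of the catalytic subunits of protein phosphatase PP6; no source used here gives the promoter of its construct. The series is about how NRP and FyPP3 link ABA to growth driven by auxin, so the comparisons ask how these auxin genes respond to ABA and to the genotypes.

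Auxin acts by bringing Aux/IAA proteins, which repress transcription, to the TIR1 and AFB receptors for degradation. This frees ARF transcription factors, which bind promoters at auxin response elements that hold TGTC. Aux/IAA, GH3 and SAUR genes are among the first to be transcribed after that. The Aux/IAA and GH3 products form negative feedback, since new Aux/IAA proteins repress ARFs again and GH3 enzymes join auxin to amino acids. SAUR proteins of the SAUR19 and SAUR63 groups promote cell expansion, and SAUR19 does so by inhibiting PP2C.D phosphatases, which keeps plasma membrane proton pumps active. In seedlings ABA restrains growth.

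The libraries held 16.6 M to 29.1 M fragments, as read from the steps of the values. In each group 1 library held much plastid-encoded RNA and is called plastid-rich (9.61% to 18.8% of the summed FPKM, 8 libraries) while the other two are called plastid-poor (0.0252% to 0.0877%, 16 libraries). FPKM counts fragments scaled for the length of the gene's exons and the depth of the library. FYPP3 stood at 46.7, 34.5 and 85.2 FPKM in the FyPP3DN controls and at 18.3, 15.7 and 12.7 FPKM in the WT controls, but at 13.5, 12.9 and 12.8 FPKM in the controls labelled nrp1 nrp2 FyPP3DN. FYPP3 was thus not raised in the libraries labelled nrp1 nrp2 FyPP3DN, which are called the labelled combination from here on. AT3G27090, a DCD domain gene, was at 67.4 ± 1.73 FPKM (SD, n = 3) in WT controls and at 20.03 ± 1.23 FPKM (SD, n = 3) in nrp1 nrp2 controls. The other DCD domain gene looked at, AT5G42050, went the other way, with 31.7, 29.6 and 31.4 FPKM in WT controls, 69.7, 58.1 and 44.03 in nrp1 nrp2 controls and 71.1, 74.0 and 58.5 in controls of the labelled combination, where it was called higher than in WT (1.10 ± 0.16 SE, adjusted p = 0.00324 in limma). Markers of root hairs (5 genes, summed FPKM of 1.87 to 37.1 over the libraries), of root endodermis and stele (4 genes, 19.1 to 56.7) and of green tissue (5 genes, 29943 to 42716) were detected in every library. In such whole seedlings, fewer cells of a type and less RNA per cell cannot be told apart.

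Levels spanned a wide range. The Aux/IAA genes were led by IAA9, with a mean of 123.1 FPKM over the 24 libraries (105.67 to 151.92), followed by IAA8 at 99.5, IAA7 at 65.6 and IAA16 at 60.3 FPKM. IAA8 ran from 85.9 to 111.4 FPKM, so the ranges of IAA9 and IAA8 overlapped, as did those of IAA7 (40.5 to 97.9) and IAA16 (37.3 to 77.5). At the other end 8 Aux/IAA genes had a mean under 1 FPKM. Among GH3 genes GH3.6, whose product conjugates auxin to amino acids, was highest at 15.9 FPKM (10.14 to 23.6), and GH3.4 was listed at 0 in all 24 libraries. Among SAUR genes SAUR20 was highest at 11.5 FPKM (3.05 to 20.6), and 15 of the 19 lay between 1 and 10 FPKM on average. For differences, genes with at least 1 FPKM in at least 3 libraries were tested. This kept 45 of the 55 genes (23 Aux/IAA, 5 GH3 and 17 SAUR) among 19500 in all, and left out IAA5, IAA15, IAA20, IAA31, IAA32, IAA33, GH3.1, GH3.4, SAUR61 and SAUR68.

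**Figure D1:**
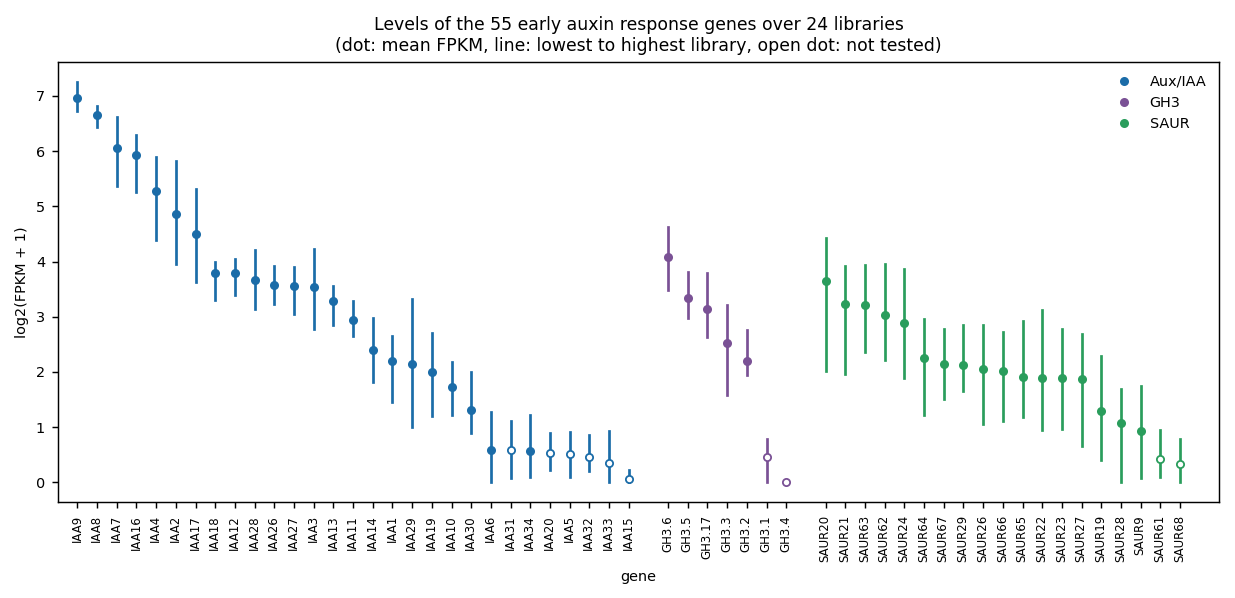
Levels of the 55 genes as log2(FPKM + 1) over 24 libraries, by family. Dots are means, lines run from the lowest to the highest library, and open dots are the 10 genes not tested; IAA9 is highest and GH3.4 is at 0.

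The genes passed the filter by different margins. IAA34 reached 1 FPKM in 3 libraries, all of them controls, and IAA6 in 4. SAUR9 reached it in 7 libraries, also all controls. SAUR9 and IAA34 were thus tested only through the side on which they were high. The middle library held 13.0 fragments of SAUR9 and 7.92 of IAA34. Within the SAUR19 to SAUR24 cluster (chr5:5962773-5984308, 6 genes in 21.5 kb of the TAIR10.1 build) the coding sequences were up to 95.2% identical, for SAUR19 and SAUR24. Of the stretches of 50 bases in SAUR19 transcripts, 18.5% also occurred in another of the 55 genes, as did 27.1% of those in SAUR63 and 19.5% of those in SAUR67. Levels of these genes are uncertain where the authors' counting split such fragments; no stretch of 50 bases was shared between Aux/IAA genes.

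The starts of 6 genes that were called in the ABA comparison are shown because they let the element read by ARFs be seen beside the response. They are IAA29 (chr4:15583082-15583331, plus strand), SAUR9 (chr4:17089684-17089933, plus strand), GH3.3 (chr2:9866563-9866812, minus strand), SAUR22 (chr5:5975088-5975337, minus strand), SAUR23 (chr5:5975530-5975779, plus strand) and SAUR65 (chr1:10308247-10308496, minus strand). Each is the 250 bases before the annotated start in RefSeq's TAIR10.1, 5′ to 3′ on the gene's strand. Capitals mark the auxin response elements TGTCTC and TGTCGG and the ABA-related letters ACGTG and CACGTG, on either strand (GAGACA is TGTCTC on the other strand).

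IAA29: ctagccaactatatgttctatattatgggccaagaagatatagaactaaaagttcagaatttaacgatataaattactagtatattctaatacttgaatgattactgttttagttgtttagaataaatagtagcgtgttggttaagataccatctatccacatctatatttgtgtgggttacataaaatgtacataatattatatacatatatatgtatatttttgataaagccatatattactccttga

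SAUR9: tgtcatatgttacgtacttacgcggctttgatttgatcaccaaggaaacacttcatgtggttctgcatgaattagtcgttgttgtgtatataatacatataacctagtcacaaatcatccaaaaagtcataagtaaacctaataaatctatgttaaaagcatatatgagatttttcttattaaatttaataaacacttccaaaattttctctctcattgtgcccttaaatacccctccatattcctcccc

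GH3.3: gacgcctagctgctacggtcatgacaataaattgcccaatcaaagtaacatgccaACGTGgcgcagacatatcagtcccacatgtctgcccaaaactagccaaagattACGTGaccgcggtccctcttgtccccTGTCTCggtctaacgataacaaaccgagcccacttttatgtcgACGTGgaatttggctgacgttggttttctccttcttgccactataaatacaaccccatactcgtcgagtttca

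SAUR22: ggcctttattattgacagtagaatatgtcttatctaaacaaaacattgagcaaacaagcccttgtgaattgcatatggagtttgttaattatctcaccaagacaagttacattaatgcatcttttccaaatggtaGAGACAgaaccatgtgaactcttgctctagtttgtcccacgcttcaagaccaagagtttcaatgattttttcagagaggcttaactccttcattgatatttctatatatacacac

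SAUR23: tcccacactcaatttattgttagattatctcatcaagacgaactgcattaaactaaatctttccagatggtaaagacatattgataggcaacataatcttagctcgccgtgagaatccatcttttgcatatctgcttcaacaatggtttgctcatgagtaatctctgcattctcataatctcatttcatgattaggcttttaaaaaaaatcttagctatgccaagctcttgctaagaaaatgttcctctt

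SAUR65: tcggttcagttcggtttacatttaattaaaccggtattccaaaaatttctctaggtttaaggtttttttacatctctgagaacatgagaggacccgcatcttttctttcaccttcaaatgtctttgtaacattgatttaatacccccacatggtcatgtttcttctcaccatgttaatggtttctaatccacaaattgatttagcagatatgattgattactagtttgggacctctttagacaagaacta

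GH3.3 held 1 TGTCTC and 3 ACGTG, SAUR22 held 1 TGTCTC, and the starts of IAA29, SAUR9, SAUR23 and SAUR65 held none of the 4. Over windows of 300 bases that include the first 50 of the transcript, TGTCTC occurred in 21 of the 55 genes (38.2%) and in 14.3% of 32546 gene starts of the genome. TGTCGG occurred in 8 (14.5%, against 5.04%) and the looser TGTCNN, which includes both, in 51 (92.7%, against 81.4%). CACGTG occurred in 6 (10.9%, against 7.11%) and ACGTG, which CACGTG contains, in 14 (25.5%, against 25.8%). Of the 6 genes that rose with ABA and the 6 that fell, 2 of each held TGTCTC.

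The ABA response was first taken as the mean over the 4 genotypes (12 libraries against 12). Aux/IAA and SAUR genes were called in both directions: IAA29, IAA8, IAA9, SAUR22, SAUR23 and SAUR65 rose, and IAA2, IAA16, IAA26, IAA28, GH3.3 and SAUR9 fell. Differences are on the log2(FPKM + 1) scale, which understates those of low genes, and were tested with limma with Benjamini-Hochberg adjustment over all 19500 genes. With 12 of 45 called (26.7%, 6 higher and 6 lower), the share was near the 24.3% of all genes tested (12.8% higher and 11.5% lower). With median-of-ratios scaling the split was 3 higher and 6 lower, as IAA8, IAA9 and SAUR22 were not called. At an unadjusted p under 0.05 there were 24 of 45, against 33.9% of all genes. The median difference was -0.03 over the 45 genes and 0.00 over all genes. ABA itself acted strongly: the cold- and ABA-inducible KIN1 rose by 5.46 ± 0.13 (SE) and the ABA receptor gene PYL6 changed by -3.43 ± 0.09 (SE). Without replicate 1 of nrp1 nrp2 +ABA the count was 7, as IAA8, IAA9, IAA16, IAA28 and SAUR22 were then not called.

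**Figure D2:**
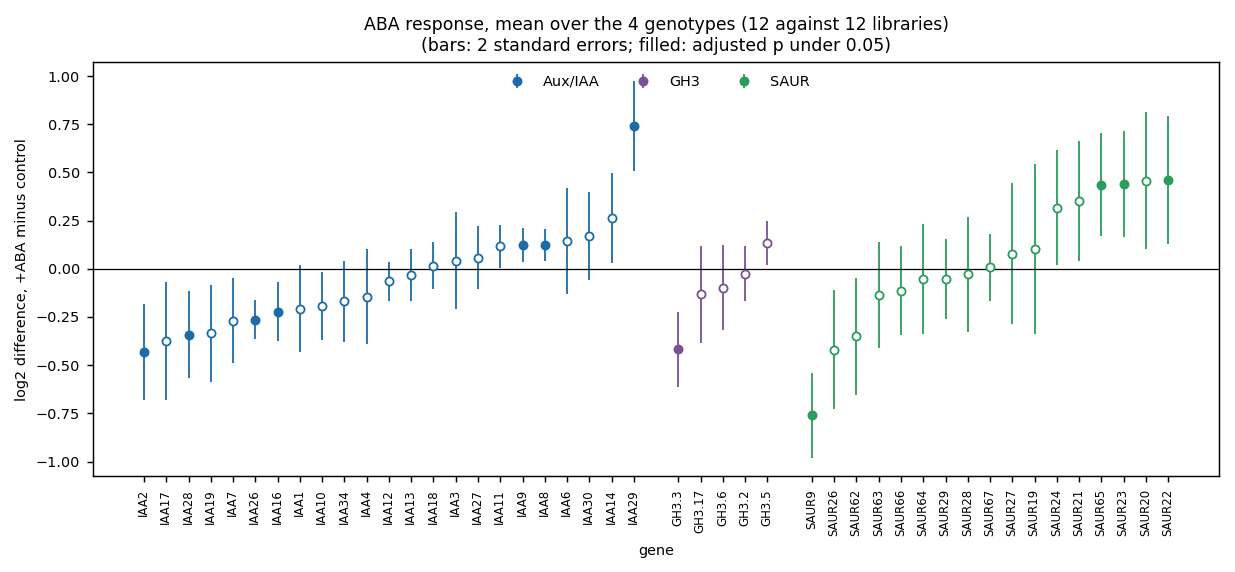
Log2 difference of +ABA minus control, mean over 4 genotypes, for the 45 genes tested, by family. Bars are 2 standard errors and filled dots are the 12 genes called; IAA29 is highest at 0.74 and SAUR9 lowest at -0.76.

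Of the 23 Aux/IAA genes tested, 3 rose, 4 fell and 16 were not called. IAA29 (AT4G32280, chr4:15583332-15584903) moved furthest. It lay at 1.00 to 3.79 FPKM with a median of 2.32 in the 12 controls and at 2.42 to 8.95 with a median of 4.005 in the 12 +ABA libraries. The ranges overlapped, but 7 +ABA libraries were above every control, and within WT alone the lowest +ABA library (2.42) was below the highest control (2.54). The mean rose from 2.23 to 4.56 FPKM, a ratio of 2.04, and the log2 difference was 0.74 ± 0.12 (SE, adjusted p = 6.27e-05 in limma). It was positive in each genotype (0.51 in WT, 0.52 in nrp1 nrp2, 0.85 in FyPP3DN and 1.08 in the labelled combination).

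The rises of IAA8 and IAA9 were small against their high levels. IAA8 went from 95.0 ± 4.52 to 103.9 ± 7.47 FPKM (SD, n = 12 each), a log2 difference of 0.12 ± 0.04 (SE, adjusted p = 0.0327 in limma). IAA9 went from 117.7 ± 6.61 to 128.5 ± 10.3 FPKM (SD, n = 12 each), also 0.12 ± 0.04 (SE, adjusted p = 0.0436). Neither was called with the scale set by the median of ratios (0.0650 and 0.0933) or in the plastid-poor libraries alone (0.198 and 0.342), and IAA9 was at -0.02 in nrp1 nrp2. IAA9 encodes a repressor whose loss changes leaf and fruit development in tomato.

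IAA26 (AT3G16500, chr3:5612203-5614803), whose product was also named for binding phytochrome, fell by little but evenly. Its controls ran from 9.99 to 14.1 FPKM with a median of 12.1, and its +ABA libraries from 8.45 to 10.4 with a median of 10.13. In 3 of the 4 genotypes no +ABA library reached the lowest control. The exception was FyPP3DN, where control replicate 1 (9.99) lay below +ABA replicate 3 (10.05). The log2 difference was -0.26 ± 0.05 (SE, adjusted p = 0.000399 in limma), from -0.39 in WT to -0.14 in the labelled combination.

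The other Aux/IAA genes that fell varied more between libraries. IAA2, whose promoter drives auxin reporter lines, ran from 20.5 to 55.3 FPKM (median 32.0) in controls and from 14.6 to 37.0 (median 23.5) with ABA. Its difference was -0.43 ± 0.13 (SE, adjusted p = 0.0137 in limma), and it was higher in the plastid-rich library in all 8 groups. IAA28, a repressor of lateral root formation when stabilised, ran from 8.10 to 17.4 FPKM (median 13.6) in controls and from 7.83 to 14.5 (median 9.71) with ABA, a difference of -0.34 ± 0.11 (SE, adjusted p = 0.0328). The controls of IAA28 were low in 1 library, WT replicate 1 at 8.10 FPKM. IAA16, in which a gain-of-function allele reduces responses to auxin and to ABA, ran from 50.9 to 77.5 FPKM (median 65.3) in controls and from 37.3 to 71.02 (median 54.8) with ABA, a difference of -0.22 ± 0.08 (SE, adjusted p = 0.0365). IAA16 was not called in the plastid-poor libraries alone (adjusted p = 0.0660). Of the genes not called, IAA17 (-0.37 ± 0.15 SE, adjusted p = 0.0848), which encodes the AXR3 repressor, and IAA19 (-0.34 ± 0.13 SE, adjusted p = 0.0589), which acts in hypocotyl bending, were the nearest to those that fell. Both passed with library type as a block in the fit (adjusted p = 0.0444 and 0.0408) and in the plastid-poor libraries alone (0.0214 and 0.0151).

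Of the 5 GH3 genes tested only GH3.3 was called; 2 had an unadjusted p under 0.05. GH3.3 (AT2G23170, chr2:9863855-9866562) encodes an enzyme that conjugates auxin and other acids to amino acids. It ran from 4.15 to 8.29 FPKM (median 5.13) in controls and from 1.98 to 6.69 (median 3.74) with ABA, and 8 of the 12 +ABA libraries were below every control. The highest values were the FyPP3DN controls 1 and 3 (8.20 and 8.29) and the lowest was WT +ABA replicate 3 (1.98). The difference was -0.42 ± 0.10 (SE, adjusted p = 0.00289 in limma), with -0.50 in WT, -0.60 in nrp1 nrp2, -0.46 in FyPP3DN and -0.11 in the labelled combination. The other 4 lay between -0.13 (GH3.17, which acts on auxin with glutamate) and 0.13 (GH3.5, adjusted p = 0.0945).

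**Figure D3:**
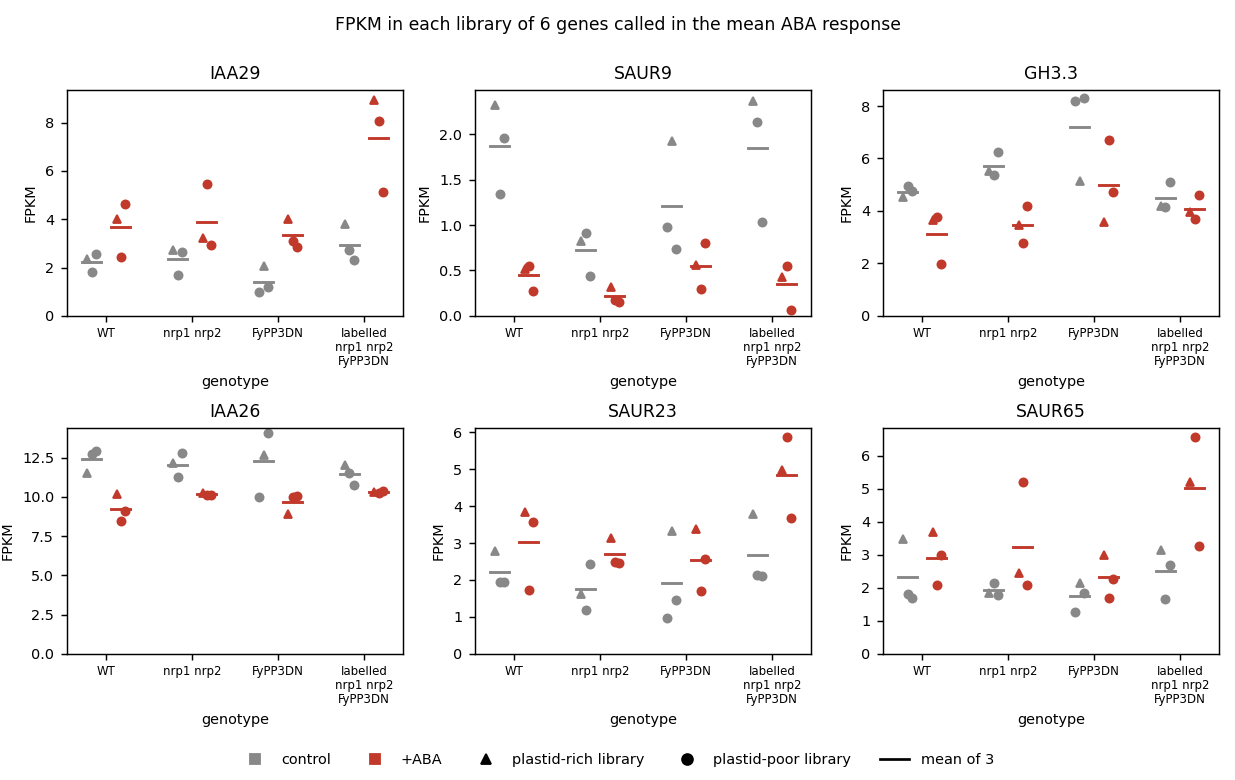
FPKM of IAA29, SAUR9, GH3.3, IAA26, SAUR23 and SAUR65 in each of the 24 libraries, by genotype. Grey is control and red +ABA, triangles are plastid-rich and circles plastid-poor libraries, lines are means of 3; SAUR9 means with ABA are below those of the controls in every genotype.

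Of the 17 SAUR genes tested, 3 rose, 1 fell and 13 were not called, and 9 had an unadjusted p under 0.05. SAUR9 (AT4G36110, chr4:17089934-17090873), which lies outside the clusters, was the one that fell. Its controls ran from 0.44 to 2.37 FPKM (median 1.19) and its +ABA libraries from 0.06 to 0.80 (median 0.375). In all genotypes but FyPP3DN each +ABA library was below each control; there +ABA replicate 3 (0.80) exceeded control replicate 3 (0.74). The mean fell from 1.41 to 0.389 FPKM, a ratio of 0.275, and the log2 difference was -0.76 ± 0.11 (SE, adjusted p = 2.2e-05 in limma). These are few fragments per library. Since SAUR9 passed the filter only through controls, its call among the genes that passed is not independent of its fall; in the fit with no filter, which tests every gene, the adjusted p was 2.62e-05. Leaving out each of the 24 libraries in turn kept the adjusted p at or under 7.2e-05.

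The SAUR19 to SAUR24 cluster leaned upward, with all 6 genes above 0 (0.10 for SAUR19 to 0.46 for SAUR22) and 2 of them called. The 6 are tandem copies of similar sequence, so their shared direction does not count as 6 separate observations. SAUR23 ran from 0.96 to 3.79 FPKM (median 2.04) in controls and from 1.70 to 5.87 (median 3.27) with ABA, a log2 difference of 0.44 ± 0.14 (SE, adjusted p = 0.0238 in limma). SAUR22 ran from 0.92 to 3.87 FPKM (median 1.90) in controls and from 1.32 to 7.68 (median 2.78) with ABA, a difference of 0.46 ± 0.17 (SE, adjusted p = 0.0476). In both genes 3 +ABA libraries were above every control, and the highest belonged to the labelled combination (SAUR22 at 7.04, 7.68 and 2.81 FPKM there). SAUR22 lost its call with a pseudocount of 0.1, no filter, the median-of-ratios scale or the plastid-poor libraries alone. SAUR20, the most abundant of them, had a difference of 0.46 ± 0.18 (SE) and was not called (adjusted p = 0.0694), though it was with library type as a block (0.0208) and in the plastid-poor libraries alone (0.0143).

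The other clusters did not lean one way. In SAUR26 to SAUR29 (chr3:976715-983768) no gene was called, with SAUR26 lowest at -0.42 ± 0.15 (SE, adjusted p = 0.0540 in limma). In SAUR61 to SAUR68 (chr1:10301377-10323239) SAUR65 rose by 0.44 ± 0.13 (SE, adjusted p = 0.0203), while SAUR62 was at -0.35 ± 0.15 (SE, adjusted p = 0.105). SAUR65 ran from 1.28 to 3.49 FPKM (median 1.84) in controls and from 1.69 to 6.58 (median 3.00) with ABA. Its neighbours SAUR63, SAUR64, SAUR66 and SAUR67 lay between -0.13 and 0.01. SAUR62 and SAUR26 were called lower with library type as a block (adjusted p = 0.00405 and 0.00741).

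Of 16 tested SAUR genes outside the 55, 10 fell and none rose, against 11.5% lower and 12.8% higher among all genes, and 11 had an unadjusted p under 0.05, against 33.9%. The 6 not called included SAUR53 at 0.16 and SAUR71 at 0.15. The 16 had a median of -0.34 beside 0.01 for the 17 SAUR genes above and 0.00 for all genes. SAUR1 (-1.12 ± 0.13 SE, adjusted p = 1.32e-06 in limma), SAUR36 (-0.76 ± 0.09 SE, adjusted p = 1.24e-06) and SAUR14 (-0.32 ± 0.07 SE, adjusted p = 0.00252) had the smallest adjusted p. The outside list was a choice of named genes made with earlier results of these data known. Its share called is thus not that of SAUR genes at large. The difference between these lists was not tested.

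**Figure D4:**
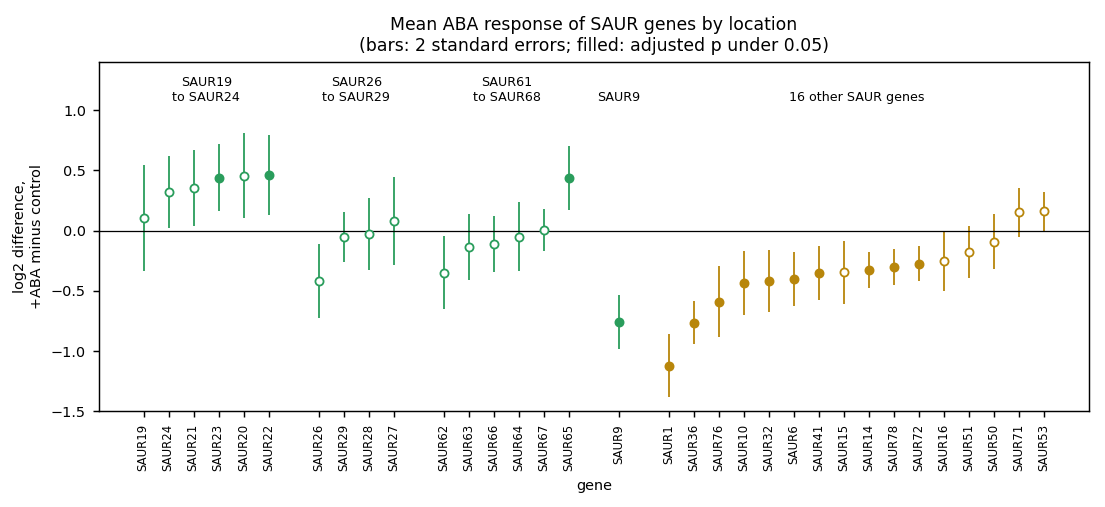
Mean ABA response of SAUR genes as log2 difference of +ABA minus control, ordered by cluster, with 16 SAUR genes outside the 55 at the right. Bars are 2 standard errors and filled dots are genes called; 10 of the 16 at the right are called lower, and all 6 of SAUR19 to SAUR24 lie above 0.

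Elsewhere in the auxin pathway the called genes went in both directions, and the counts are to be read against the 24.3% called among all genes (12.8% higher and 11.5% lower). None of the 6 receptors TIR1 and AFB1 to AFB5 or the co-repressor TPL was called, and none had an unadjusted p under 0.05. Of 15 ARF genes, ARF18 (0.42 ± 0.07 SE) and MP (0.32 ± 0.09 SE), which encodes the activator ARF5, rose and none fell. Of 9 tested genes of auxin synthesis, YUC5 (-0.53 ± 0.08 SE) and TAA1 (-0.51 ± 0.11 SE) fell and YUC9 (0.42 ± 0.09 SE) rose; TAA1 and the YUC enzymes act in turn in the main route to auxin. Of 6 genes of auxin inactivation and release, 3 rose and none fell: the oxygenase superfamily genes AT1G14120 (1.49 ± 0.08 SE) and AT1G14130 (0.29 ± 0.06 SE), and ILR1 (0.27 ± 0.05 SE), which frees auxin from amino acid conjugates. The mean hides a difference between genotypes for AT1G14120, which went from 11.5 ± 1.17 to 49.2 ± 4.44 FPKM in WT and from 13.6 ± 2.08 to 18.98 ± 2.82 in FyPP3DN (SD, n = 3 each). Its response was lower in FyPP3DN than in WT by the test of the difference (-1.56 ± 0.23 SE, adjusted p = 0.00582 in limma). With ABA both AT1G14120 (-1.34 ± 0.16 SE, adjusted p = 0.000156) and AT1G14130 (-0.62 ± 0.12 SE, adjusted p = 0.0167) were lower in FyPP3DN than in WT. Of 6 genes for PP2C.D phosphatases and proton pumps, the PP2C gene AT5G02760 fell (-0.67 ± 0.10 SE). Of 7 growth regulators that act on SAUR genes, PIF4 (0.63 ± 0.06 SE) and HB2 (0.30 ± 0.09 SE), which promote elongation in warmth and shade, rose. Of 7 further early auxin targets ACS4 (-0.46 ± 0.11 SE), for ethylene synthesis, fell and PID (0.24 ± 0.07 SE), a kinase that directs auxin transport, rose. Their adjusted p-values in limma were at most 0.0183. In the same comparison none of the 5 root hair and none of the 4 endodermis and stele markers was called, and 2 of the 5 green tissue markers rose (LHCB2.1 by 0.42 and LHCA1 by 0.22). The summed root hair markers ran from 1.87 to 26.1 FPKM in controls and from 3.26 to 37.1 with ABA, those of endodermis and stele from 19.1 to 54.9 and 20.5 to 56.7, and those of green tissue from 29943 to 42716 and 32586 to 42020. Root hair sums varied widely within a group (3.26 to 37.1 FPKM in nrp1 nrp2 +ABA), so a shift could go uncalled. The part of these markers in the results on the auxin genes was not tested.

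Within single genotypes few of the 45 genes were called. In WT SAUR9 (2.32, 1.34 and 1.96 FPKM in controls, 0.52, 0.55 and 0.27 with ABA) changed by -0.98 ± 0.22 (SE, adjusted p = 0.00681 in limma). IAA26 (11.5, 12.7 and 12.9 FPKM in controls, 10.2, 8.45 and 9.11 with ABA) changed by -0.39 ± 0.10 (SE, adjusted p = 0.0175). These 2 of 45 compare with 7.7% of all genes tested; at an unadjusted p under 0.05 there were 8 of 45, against 17.3%. The groups did not overlap for either gene. IAA26 was not called without WT control replicate 2 or 3 or WT +ABA replicate 2 or 3 (adjusted p = 0.0583 to 0.0966), nor in a fit of the WT libraries alone (0.0819). SAUR9 passed the filter only through controls, so its call here is not independent of its fall. It was also called with no filter, but not in the plastid-poor libraries alone (-0.91, adjusted p = 0.0822). With library type as a block 5 genes were called, with SAUR62, SAUR26 and IAA2 added, all lower (adjusted p = 0.0206, 0.0399 and 0.0465).

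In nrp1 nrp2 no gene of the 45 was called, against 6.02% of all genes, and 8 had an unadjusted p under 0.05 in limma, against 15.2%. The nearest was GH3.3, at 5.51, 5.38 and 6.25 FPKM in controls and 3.45, 2.79 and 4.18 with ABA, a difference of -0.60 ± 0.20 (SE, adjusted p = 0.0876). Its groups did not overlap, and it was called with library type as a block (adjusted p = 0.0497).

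In FyPP3DN 1 of 45 was called, against 5.95% of all genes, and 10 had an unadjusted p under 0.05, against 18.2%. IAA29 stood at 1.00, 2.06 and 1.20 FPKM in controls and at 4.02, 3.10 and 2.87 with ABA, without overlap, and rose by 0.85 ± 0.24 (SE, adjusted p = 0.0340 in limma). This call rested on several libraries: without control replicate 1 or 3 or +ABA replicate 1 or 2 the adjusted p was 0.0829 to 0.169, and without control replicate 2, the plastid-rich library of that group, 4 genes were called (IAA17, IAA29, GH3.3 and SAUR20). With the median-of-ratios scale IAA29 was not called (adjusted p = 0.0512) and IAA26 was.

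In the labelled combination 2 of 45 were called, against 11.4% of all genes, and 10 had an unadjusted p under 0.05, against 23.2%. SAUR9 (2.37, 2.14 and 1.03 FPKM in controls, 0.43, 0.55 and 0.06 with ABA) changed by -1.06 ± 0.22 (SE, adjusted p = 0.00253 in limma). IAA29 (3.79, 2.73 and 2.30 FPKM in controls, 8.95, 8.06 and 5.12 with ABA) rose by 1.08 ± 0.24 (SE, adjusted p = 0.00393). Neither gene overlapped between the groups. Without +ABA replicate 3, whose values were the lowest of its group for both genes and for SAUR22, SAUR23 and SAUR65, 6 genes were called, with IAA6, IAA9, SAUR22 and SAUR65 added. With library type as a block 8 were called: SAUR22, SAUR65, SAUR23, IAA9 and IAA6 were added as higher and IAA2 as lower (adjusted p = 0.0176 to 0.0483). The filter again let SAUR9 pass only through controls, and it was also called with no filter. In the plastid-poor libraries alone SAUR9 was at -0.98 and not called (adjusted p = 0.0532).

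No ABA response of the 45 genes differed from that of WT by the test of the difference itself. The count of called genes was 0 of 45 for nrp1 nrp2, FyPP3DN and the labelled combination alike, with 0, 0 and 1 at an unadjusted p under 0.05 in limma, and 0%, 0.144% and 0% of all genes were called (1.81%, 8.13% and 1.42% at the unadjusted p). The 1 gene was SAUR29, whose response was -0.25 in WT and 0.47 in the labelled combination, a difference of 0.72 ± 0.29 (SE, adjusted p = 1.00). For IAA29 the difference from WT was 0.34 in FyPP3DN and 0.56 in the labelled combination, with intervals of 2 SE that include 0 (-0.32 to 1.01 and -0.10 to 1.23). Differences within these intervals could not be resolved with 3 libraries a group. All 3 differences share the 6 WT libraries.

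Between genotypes no gene of the 45 was called in limma in any of 8 comparisons, in which 0.0103% to 0.892% of all genes were called. Without ABA the background was 0.0923% for nrp1 nrp2, 0.579% for FyPP3DN and 0.0821% for the labelled combination against WT, and 0.0462% for the labelled combination against nrp1 nrp2. The counts of the 45 at an unadjusted p under 0.05 were 1, 4, 2 and 1, respectively, beside 4.18%, 12.7%, 4.43% and 11.3% of all genes. With ABA the background was 0.0667%, 0.892%, 0.0872% and 0.0103% in the same order, and the counts at an unadjusted p under 0.05 were 2, 5, 9 and 8, beside 2.32%, 11.2%, 2.8% and 3.3% of all genes. The comparisons share their WT or nrp1 nrp2 libraries.

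Without ABA, SAUR9 was lower in nrp1 nrp2 (0.82, 0.91 and 0.44 FPKM) than in each WT control, with a difference of -0.73 ± 0.22 (SE, adjusted p = 0.619 in limma). In FyPP3DN controls GH3.3 (8.20, 5.14 and 8.29 FPKM) was above each WT control (4.52, 4.94 and 4.74), with 0.49 ± 0.20 (SE, adjusted p = 0.283). GH3.3 also had the same lean with ABA (0.54 ± 0.20 SE, adjusted p = 0.280), with 3.58, 6.69 and 4.71 FPKM in FyPP3DN and 3.64, 3.77 and 1.98 in WT, which overlap. The 17 SAUR genes had a median of -0.40 in FyPP3DN controls against WT controls, and 15 of 17 were below 0, beside a median of -0.02 over all genes. The 5 green tissue markers moved the same way, with a median of -0.37, 3 of them at an unadjusted p under 0.05 and none called. Their summed levels did not overlap (29943 to 33815 FPKM in FyPP3DN controls, 37033 to 39622 in WT controls), and their part in the SAUR values was not tested. Each of the 17 missed the threshold, at an adjusted p of at least 0.424. FyPP3DN control replicate 1 had the lowest summed level of all controls in each SAUR cluster (11.1, 4.1 and 15.8 FPKM). The 17 include tandem copies of similar sequence, so they are not separate observations. In nrp1 nrp2 controls against WT controls the 17 had a median of -0.25, with 13 below 0, beside 0.01 over all genes. In the plastid-poor libraries alone this lean was weaker, with a median of -0.11, 10 below 0 and 7 above. The green tissue markers had a median of -0.19 in this comparison, with 0 at an unadjusted p under 0.05. Their summed levels in nrp1 nrp2 controls (33373 to 35706 FPKM) lay below those of WT controls, and their part in the SAUR values was again not tested.

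With ABA, the labelled combination had the highest values of several genes. GH3.5, an enzyme that conjugates auxin and salicylic acid, stood at 12.98, 11.18 and 9.89 FPKM there and at 8.93, 6.86 and 8.83 in WT, a difference of 0.42 ± 0.11 (SE, adjusted p = 0.470 in limma). IAA29 was at 8.95, 8.06 and 5.12 FPKM there and at 3.99, 2.42 and 4.62 in WT, 0.84 ± 0.24 (SE, adjusted p = 0.660). SAUR29 was at 4.39, 6.26 and 5.23 FPKM there and at 2.37, 2.18 and 2.19 in nrp1 nrp2, 0.94 ± 0.21 (SE, adjusted p = 0.598). In all 3 genes the groups did not overlap. The 17 SAUR genes had a median of 0.59 against WT (16 above 0) and of 0.51 against nrp1 nrp2 (17 above 0), beside 0.00 and 0.04 over all genes, and none was called. In the plastid-poor libraries alone these medians were 0.66 and 0.38, with 16 and 17 above 0. Without ABA the SAUR medians of the labelled combination were 0.08 against WT (10 above 0) and 0.28 against nrp1 nrp2 (16 above 0). The medians over all genes were then -0.04 and -0.05. In the plastid-poor libraries alone the SAUR medians without ABA were 0.08 against WT (10 above 0) and 0.15 against nrp1 nrp2. The lean against nrp1 nrp2 was thus weaker there, with 12 above 0 and 5 below. Without ABA the 5 green tissue markers were also higher in the labelled combination than in nrp1 nrp2. Their median was 0.23, with 3 at an unadjusted p under 0.05 and none called. The summed levels did not overlap (40398 to 42716 FPKM against 33373 to 35706). Root hair markers had a median of -0.62 there, with 0 at an unadjusted p under 0.05. The part of these markers in the SAUR values was not tested. Tandem copies of similar sequence are among the 17 SAUR genes, so these are not separate observations.

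The clusters' summed levels show the spread behind these counts. SAUR19 to SAUR24 summed to 31.7 ± 6.55 FPKM in WT controls and 36.8 ± 14.1 with ABA, and to 35.8 ± 17.1 and 53.8 ± 11.7 in the labelled combination (SD, n = 3 each). In FyPP3DN controls the sum was 11.1, 34.9 and 21.6 FPKM, with replicate 2, the plastid-rich library, the highest. SAUR26 to SAUR29 summed to 12.4 ± 2.32 FPKM in WT controls and 8.21 ± 3.21 with ABA, and to 11.9 ± 4.69 and 13.9 ± 2.48 in the labelled combination. SAUR61 to SAUR68 summed to 32.8 ± 11.6 FPKM in WT controls and 26.1 ± 7.45 with ABA, and to 36.5 ± 9.57 and 39.1 ± 5.63 in the labelled combination. The median difference of the plastid-rich library from the mean of the other two was 0.37 for the 17 SAUR genes, 0.11 for Aux/IAA, -0.16 for GH3 and -0.05 for all genes on the log2 scale. Of the 17 SAUR genes 5 were higher in the plastid-rich library in all 8 groups, as were 3 of 23 Aux/IAA genes and 9.4% of all genes. Each group held 1 such library, so the differences between groups are the same with and without library type as a block. The root hair marker EXPA7 was lowest in the plastid-rich library of every control group (0.48, 0.48, 0.53 and 0.85 FPKM). With ABA this held for EXPA7 in nrp1 nrp2 and FyPP3DN, but not in WT or the labelled combination. EXPA18, COBL9, PRP3 and LRX1, the other root hair markers, went as EXPA7 did in most groups. In FyPP3DN +ABA, however, none of them was lowest in the plastid-rich library (PRP3 at 4.31 FPKM there and 2.16 in replicate 2). PRP3 was also not lowest there in controls of the labelled combination (2.81 FPKM, against 2.02 in replicate 3). The part of root content in the differences between library types was not tested.

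**Figure D5:**
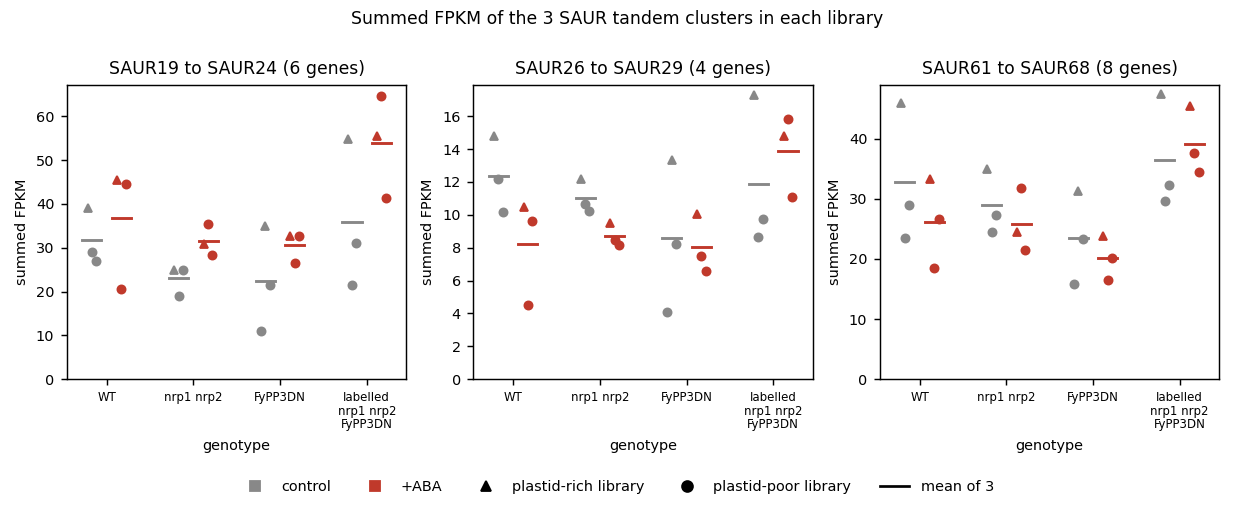
Summed FPKM of the 3 SAUR tandem clusters in each of the 24 libraries, by genotype. Grey is control and red +ABA, triangles are plastid-rich libraries and lines are means of 3; the controls' triangles lie above their circles in all but the SAUR19 to SAUR24 sum of nrp1 nrp2.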

How the data were processed

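Poly(A) or rRNA-depleted RNA was sequenced on an Illumina system per the labels' protocols, which do not say which library had which. The submitters' processing notes name Trimmomatic 0.30, HISAT2 2.0.1 and TAIR10; no source used here gives the counter, annotation or strandedness. The deposited unit is FPKM, which the authors rounded to 2 decimals. Depth was read from the steps of low values (99.4% to 100% within 0.1 of a whole fragment).

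log2(FPKM + 1) was fitted in limma 3.58.1 (R 4.3.3, intensity trend) with a mean for each of 8 groups over all 24 libraries, and 16 comparisons were made. Tests were two-sided at an adjusted p of 0.05 and were checked on simulated data. The labels do not say whether replicates were separate cultures, so each p-value reflects only how these libraries vary, which may be technical. The 55 genes, the lists and the tests were chosen with earlier results of these data known. Values are given for up to 12 genes called in the mean ABA response, up to 3 called in each other comparison, the highest gene of each family and up to 3 called genes of each other list; genes named beyond these (those nearest the threshold, those at an unadjusted p under 0.05, and GH3.3 where it was not called) were chosen after their values were seen. Libraries with the same replicate number varied together in 12 comparisons (correlations of residuals with the same number 0.153 to 0.858). In these, replicate 1 is the plastid-rich library of every group, so pairing by number and shared library type cannot be told apart. They did not vary together in the 4 comparisons with the FyPP3DN control group (lowest -0.694), where replicate 2 rather than 1 is the plastid-rich one. The design text gives 6 d of growth where the labels give 5 d. Gene positions and starts were taken from RefSeq's TAIR10.1, which holds all 55 genes.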

Additional observations from a re-analysis of the deposited data

Results flagged for a closer look

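Of the genes named, 2 outside the 55 had an ABA response in FyPP3DN that differed from that in WT by the test of the difference itself. AT1G14120, of the oxygenase superfamily, differed by -1.56 ± 0.23 (SE, adjusted p = 0.00582 in limma), and KIN1, used as a check of the ABA treatment, by -1.81 ± 0.36 (SE, adjusted p = 0.0465). KIN1 went from 0.927 ± 0.265 to 136.2 ± 35.3 FPKM in WT and from 2.30 ± 0.623 to 67.1 ± 22.3 FPKM in FyPP3DN (SD, n = 3 each).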

How the results depend on the processing

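Of the 12 genes called in the mean ABA response, SAUR9, IAA29, IAA26, GH3.3, IAA2, SAUR23 and SAUR65 passed under all 31 alternatives. IAA8, IAA9, IAA16, IAA28 and SAUR22 did not pass under at least 10 each, and no named gene changed direction. The count of 12 was 11 with a pseudocount of 0.1, 13 with 5, 13 with no filter (SAUR68 and IAA15, near 0 FPKM, added), 9 with median-of-ratios scaling (3 higher and 6 lower), 15 with the replicate block, 17 with library type as a block, 11 in plastid-poor libraries and 7 to 15 with 1 library left out. In WT the count of 2 was 1 with only the groups compared, 5 with the type block, 1 in plastid-poor libraries and 1 to 2 with 1 left out. In nrp1 nrp2 the count of 0 was 1 with the type block. In FyPP3DN the count of 1 was 0 with a pseudocount of 5, with no filter, with only the groups compared and in plastid-poor libraries, 2 with the type block and 0 to 4 with 1 left out. In the labelled combination the count of 2 was 8 with the type block, 1 in plastid-poor libraries and 2 to 6 with 1 left out. The replicate block changed the count in none of the single genotypes. The 11 comparisons between genotypes and between responses stayed at 0 under every setting run. The type block leaves each difference as it is and takes the spread between library types out of its error, and the plastid-poor fit has 16 libraries; other causes were not tested. Of the genes tested, IAA34, IAA6, SAUR28 and SAUR9 had the fewest fragments, with a median of 7.92, 7.97, 12.004 and 13.0 per library.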
